A study of Mus musculus with 38 samples.

Results

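Broad shared distal H3K27ac domains are long stretches of acetylated chromatin away from promoters that carried the mark in cultured mouse cortical neurons both before and after depolarisation. The members were chosen by H3K27ac width and overlap: they are the peaks of the distal H3K27ac list after KCl that were at least 5000 bp wide and overlapped a distal peak of unstimulated neurons by at least 1 bp. This held for 660 of 18556 distal KCl peaks, or 3.56% of the peaks and 9.67% of the acetylated bases (4.48 Mb). Of the rest, 12994 were narrower peaks shared between conditions and 4902 overlapped no unstimulated distal peak and are called KCl-only here. Width and overlap chose the domains, so every H3K27ac value of theirs is a description without a test.

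The neurons were taken from C57BL/6 embryos at embryonic day 16.5 and studied after 7 days in vitro. Activity was blocked overnight in all cultures, at sodium channels with 1 µM TTX and at NMDA receptors with 100 µM DL-AP5. The unstimulated cultures stayed silenced and the KCl cultures were depolarised for 2 h. H3K27ac was mapped in biological samples 1 and 2, whose lists were merged by the authors, and therefore has no replicates here. The AP-1 proteins were mapped by ChIP-seq, with 1 peak list per library. In biological samples 3 and 4 these were c-Fos (antibodies sc52 and sc7202) and FosB (sc48), each without stimulation and after KCl, and JunB (sc46), in sample 4 only. In biological samples 5 and 6, KCl-treated neurons infected with control shRNA or c-Fos shRNA were used for c-Fos (sc52), and those with control or FosB shRNA for FosB (sc48). The sources used here name neither the shRNA vector nor the purity of the cultures, and the files hold no expression data by which the cell type could be checked.

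H3K27ac is deposited by the acetyltransferases CBP and p300 and marks active promoters and enhancers. Enhancers that lie close together can share 1 unbroken acetylated stretch, and very long stretches are known in many tissues to lie near genes that define the cell type. AP-1 is a dimer of a Fos and a Jun protein that binds DNA. Depolarisation lets calcium into neurons and induces Fos, FosB and JunB as early response genes, and their products then bind enhancers of later response genes.

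The peak lists hold no reads, so the depth of the libraries is unknown. The 22 AP-1 lists held 557 to 28885 peaks. The lists of biological sample 3 were longer than those of sample 4 after KCl, and those of sample 5 longer than those of sample 6. The KCl list of c-Fos sc52 in sample 4 (6808 peaks) was the shortest of the 6 c-Fos lists after KCl without c-Fos shRNA. P-values below measure the spread between these libraries, and the 6 KCl c-Fos libraries come from only 4 biological samples. The c-Fos libraries compared between KCl and no stimulation come from biological samples 3 and 4 alone, both antibodies from each. The genome build is mm9, and genes near the domains were not assigned here.

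The domains ranged from 5000 to 28419 bp, with a median of 6041.5 bp and quartiles of 5412 and 7123.75 bp. At least 7500 bp were reached by 136, at least 10 kb by 47, at least 15 kb by 11 and at least 20 kb by 2. Their median score, the authors' measure of peak strength, was 1761.84, against 212.895 for narrower shared peaks. The 3 narrowest members were 5000, 5004 and 5004 bp wide, and the 3 widest shared peaks left out were each 4999 bp wide. The width limit thus cuts through a continuous range of widths. Of the 678 distal KCl peaks of at least 5000 bp, 18 overlapped no unstimulated distal peak and are not members. Among the 10862 KCl peaks outside the distal list, a larger share was this wide, 985 or 9.07%.

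Most domains were nearly as wide without stimulation. A single unstimulated distal peak lay under 568 domains and several under 92. The share of a domain's length inside unstimulated H3K27ac peaks had a median of 93.2% and a lower quartile of 81.5%. It was at least 90% in 385 domains, 50 to under 90% in 236 and under 50% in 39, and 109 domains lay wholly inside unstimulated peaks. The KCl domain was wider than the unstimulated peaks under it in 439 cases and narrower in 221, with a median ratio of 1.05. Choosing by unstimulated width turned this round. Of 651 unstimulated distal peaks of at least 5000 bp, 643 overlapped a distal KCl peak, 420 of those were narrower after KCl and 223 wider, and the median ratio was 0.950. The direction of the typical width change therefore follows the condition used for the choice. At least 2-fold widening after KCl was seen in 38 domains.

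**Figure D1:**
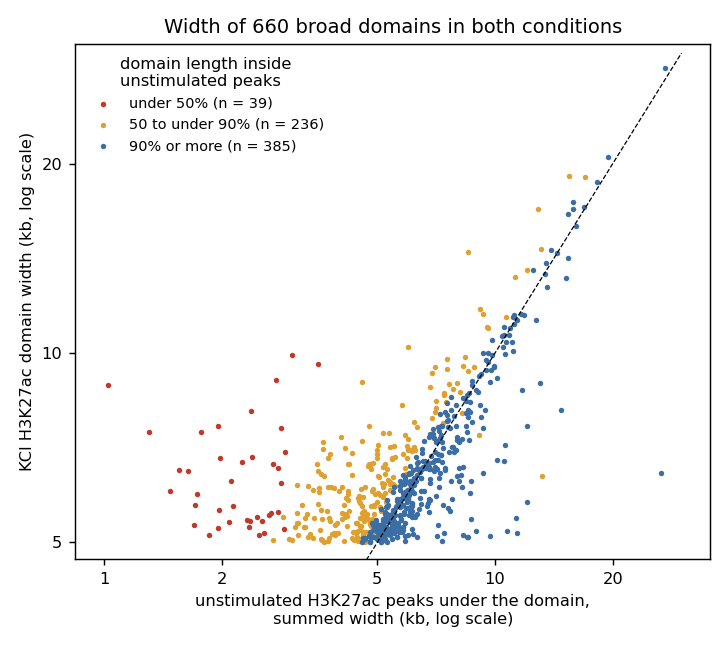
Each point is 1 of the 660 domains, with its width after KCl (vertical, kb, log scale) against the summed width of the unstimulated H3K27ac peaks under it (horizontal, kb, log scale), and the dashed line marks equal widths. The 385 domains with at least 90% of their length inside unstimulated peaks lie near or right of the line, and the 39 with under 50% lie to its left.

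The domains lay on all chromosomes of the mouse but Y and were often close to other acetylated sites. Chromosome 2 held the most (58), and among the autosomes their share of distal peaks ran from 2.23% on chromosome 5 to 4.63% on chromosome 8. On the X chromosome it was 1.19%, 3 of 252, and 2 domains lay on an unplaced part of chromosome 9. The nearest other distal KCl peak was a median of 5694.5 bp away, against 16384 bp for narrower shared peaks. The distance to the nearest KCl peak outside the distal list was much the same in both sets, with medians of 65920 and 66056.5 bp. Linking domains within 12.5 kb of each other, the distance often used to join enhancers into super-enhancers, gave 33 groups with 72 domains. The longest chain (mm9) was chr18:69717416-69776267, where 4 domains filled 54445 of 58852 bp, and chr15:44497939-44540045 held another 4.

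The 5 widest members differed in their AP-1 binding. The widest of all, chr18:69747849-69776267 (28419 bp), is part of the chain on chromosome 18 and lay to 93.8% inside a single unstimulated peak of 27212 bp. C-Fos peaks were listed there in 3 of 6 KCl libraries, and FosB was listed in 3 of 4, with 5 peak centres in the control shRNA library of sample 5. The next, chr15:85494041-85514513 (20473 bp), had a c-Fos peak in 1 KCl library. Domain chr13:84886681-84905399 (18719 bp) had c-Fos in 5 of 6, with 4 centres for sc52 and 5 for sc7202 in sample 3, and FosB in all 4. By contrast, chr4:104839784-104858838 (19055 bp) had no AP-1 peak in any of the 11 KCl lists without c-Fos or FosB shRNA. Domain chr13:84190698-84209831 (19134 bp) lay between, with c-Fos in 3 libraries and FosB in 1.

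C-Fos was listed in far more of the domains after KCl than before. Of the 660 domains, unstimulated c-Fos peaks overlapped 5.00% (sc52) and 3.94% (sc7202) in sample 3, and 1.21% with either antibody in sample 4. Over all 18556 distal KCl peaks, the same libraries covered 1.92, 1.31, 0.787 and 0.496%. After KCl the shares in the same samples were 45.9% (sc52) and 55.0% (sc7202) in sample 3, and 19.2% and 40.0% in sample 4, and the background over all distal peaks was 22.1, 29.2, 8.95 and 19.98%. With control shRNA they were 45.5% (background 22.2%) in sample 5 and 35.2% (19.0%) in sample 6. No KCl library fell as low as any unstimulated one, and sc52 in sample 4 was the lowest after KCl. A domain is longer than the other peaks and has more room for a c-Fos peak, so densities are given next.

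As a density, the number of c-Fos peak centres per 100 kb of domain rose from 0.631 ± 0.336 (SD, n = 4) without stimulation to 7.80 ± 3.62 (SD, n = 4) after KCl. The unstimulated values were 0.938 and 0.179 for sc52 and 0.826 and 0.581 for sc7202 in samples 3 and 4, and the KCl values in the same order were 9.04, 3.01, 11.7 and 7.50. The groups did not overlap. The difference was 3.44 on the scale of log2(density + 0.1), or 10.9-fold (exact permutation test of the library labels, two-sided, p = 0.0286, the smallest that 4 against 4 allows, adjusted p = 0.0417 over 4 tests). The KCl lists were also longer over the whole genome, with 6808 to 28885 peaks against 557 to 3669. With each list kept to its best peaks, as many as the shortest list holds, the difference was 0.40 (p = 0.543, exact permutation test). A gain beyond list length was therefore not detectable in that setting. The shortest list, sc7202 of sample 4 without stimulation (557 peaks), had 26 centres in the domains, 24 of them in only 6 domains. The value of 0.40 carries that limit. With samples 3 and 4 as a replicate block and each antibody paired, all 4 pairs rose, and the exact sign-flip p was 0.125, the smallest that 4 pairs allow. All these libraries come from biological samples 3 and 4 alone, so the 4 pairs are not independent cultures. The p-values here do not measure the spread between cultures. Leaving out sc7202 of sample 4 gave 3.43 with an exact permutation p of 0.1, the smallest for 3 against 3.

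**Figure D2:**
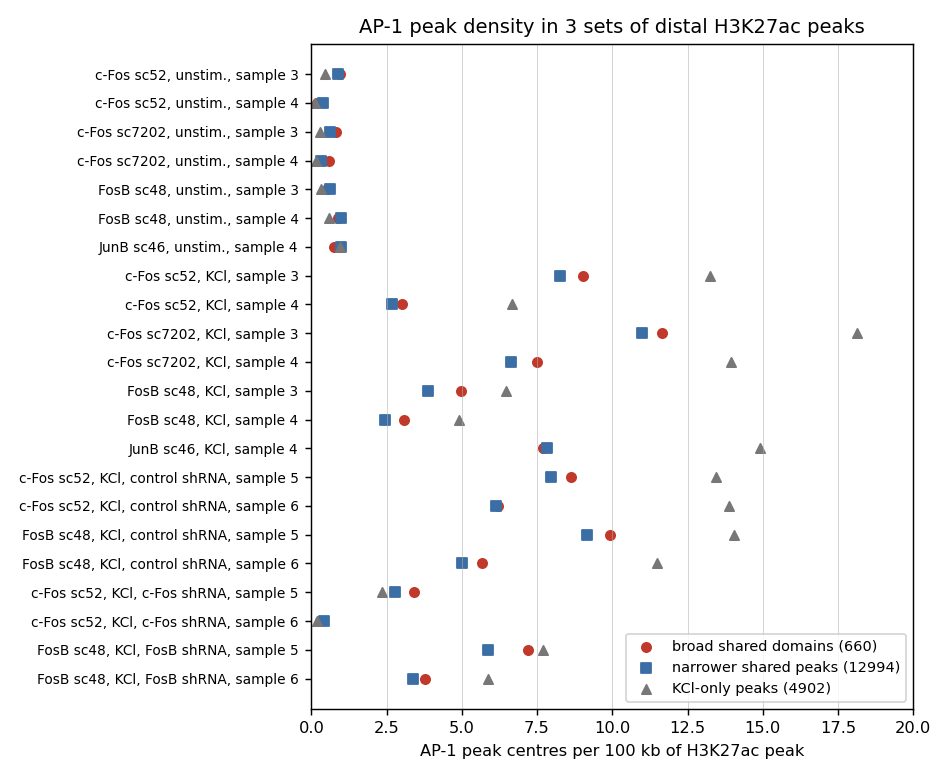
Each row is 1 AP-1 library (antibody, condition and biological sample), and the points give its peak centres per 100 kb of H3K27ac peak (horizontal) in the 660 broad shared domains (circles), the 12994 narrower shared peaks (squares) and the 4902 KCl-only peaks (triangles). In every KCl library without c-Fos or FosB shRNA the circles lie close to the squares and left of the triangles.

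Other AP-1 proteins followed the same order of conditions. FosB peaks overlapped 3.48% and 5.61% of the domains without stimulation (background 1.31 and 2.14%) and 25.5% and 16.8% after KCl (background 10.3 and 7.09%) in samples 3 and 4. FosB density rose from 0.536 and 0.871 to 4.96 and 3.08 centres per 100 kb, so the groups did not overlap, with a difference of 2.35 on the log2 scale. With 2 against 2 libraries the exact permutation p of 0.333 is the smallest possible, so the design cannot call it. With control shRNA, FosB peaks overlapped 50.9% of the domains in sample 5 (background 24.6%) and 198 of the 660 in sample 6 (background 14.7%). JunB peaks, from 1 library per condition, overlapped 5.00% of the domains without stimulation (background 2.34%) and 41.1% after KCl (22.5%).

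Per base, the broad domains carried about as much c-Fos as narrower shared peaks. Over the 6 KCl libraries the density in the domains ranged from 3.01 to 11.7 with a median of 8.07 and a mean of 7.68 ± 2.92 (SD, n = 6), against 7.11 ± 2.75 in narrower shared peaks. Within each library the domains were denser, by 1.01 to 1.13-fold. The mean log2 ratio was 0.12 ± 0.06 (SD, n = 6, higher in 6 of 6, exact sign-flip test, two-sided, p = 0.03125, adjusted p = 0.0417). With 1 value per biological sample (replicate block) it was 0.10 (exact sign-flip p = 0.125, the smallest for 4 values). The direction did not hold under other limits. In exact sign-flip tests it was -0.26 for domains of at least 7500 bp (p = 0.03125) and -0.06 against shared peaks of 3000 to under 5000 bp (p = 0.0938). It was -0.26 once the outer 500 bp of every peak were left out (exact p = 0.03125, a setting added after the values were seen). FosB gave 0.24 ± 0.11 (SD, n = 4, higher in 4 of 4, exact p = 0.125, the smallest possible), and the single JunB library gave -0.03.

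All shared distal peaks were also split by width. The mean share of peaks with a c-Fos peak rose from 9.31% at 1 to 2 kb to 30.3% at 4 to 5 kb, 44.8% at 6 to 8 kb and 41.1% at 8 kb or more. The density rose from 5.32 centres per 100 kb at 1 to 2 kb to 8.06 at 3 to 4 kb and was 7.75 at 5 to 6 kb and 8.86 at 6 to 8 kb. At 8 kb or more, in 110 domains, it was 6.02 ± 2.66 (SD, n = 6). These 110 had a lower density than the domains of 6 to 8 kb in each of the 6 libraries.

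**Figure D3:**
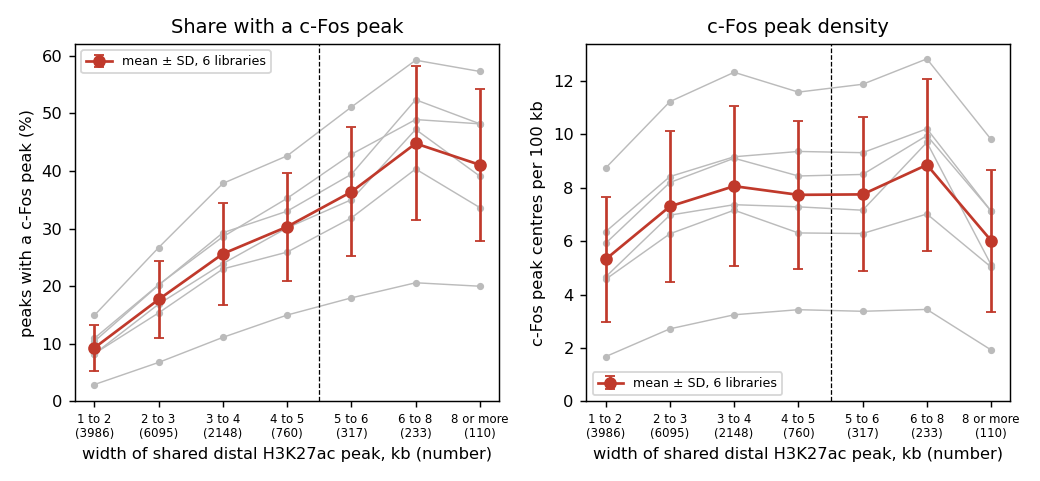
Shared distal H3K27ac peaks are binned by width in kb (horizontal, with the number of peaks in brackets), and the vertical axes give the share with a c-Fos peak in percent (left) and c-Fos peak centres per 100 kb (right). Grey lines are the 6 KCl libraries, red points their mean ± SD, and the dashed line marks the 5000 bp limit. The share climbs to 44.8% at 6 to 8 kb, while the density stays near 8 from 3 to 8 kb and is 6.02 in the widest bin.

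Against KCl-only peaks the domains held less c-Fos per base, as did narrower shared peaks. The density in KCl-only peaks was 13.2 ± 3.69 (SD, n = 6), and the domains reached 0.447 to 0.682 of it within each library. Narrower shared peaks had 7.11 ± 2.75 (SD, n = 6), so the lower density was not particular to the domains. KCl-only peaks were also narrower and weaker, with a median width of 1840 bp and a median score of 88.07. In the domains these were 6041.5 bp and 1761.84. The mean log2 ratio was -0.84 ± 0.27 (SD, n = 6, lower in 6 of 6, exact sign-flip p = 0.03125, adjusted p = 0.0417). With 1 value per biological sample (replicate block) it was -0.85 (exact p = 0.125, the smallest for 4 values).

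The domains differed among themselves in the same direction. Among the 39 domains with under 50% of their length inside unstimulated H3K27ac peaks, c-Fos was listed in 70.9 ± 15.1% (SD, n = 6 KCl libraries). Among the 236 with 50 to under 90% it was 49.9 ± 13.1%, and among the 385 with at least 90% it was 31.0 ± 11.6%. The densities were 16.3, 9.79 and 5.62 centres per 100 kb. The median widths of the 3 classes were 6041, 6020.5 and 6068 bp, so the classes were of like length. Each of the 6 c-Fos libraries, the 4 FosB libraries and the JunB library had this order. The classes rest on H3K27ac of the same contrast as the choice of domains, so no test was made. The extreme cases show it plainly. Domain chr15:25293063-25301943 (8881 bp) had only 1 unstimulated peak of 1023 bp, 11.5% of its length, and was bound in all 11 KCl AP-1 lists, with 1 to 2 c-Fos centres per library. Its combined c-Fos site at position 25299400 lay outside the unstimulated peak, which spans chr15:25294172-25295194. Domain chr4:97613962-97621461 (7500 bp, 17.3% inside unstimulated peaks) likewise had 1 centre in each of the 11.

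**Figure D4:**
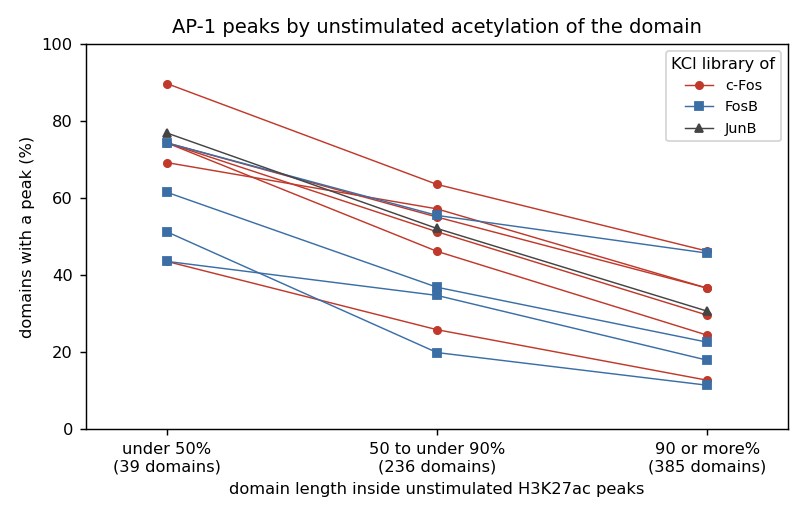
Lines join the share of domains with a peak (vertical, percent) across the 3 classes of domain by length inside unstimulated H3K27ac peaks (horizontal, number of domains in brackets), 1 line per KCl library of c-Fos, FosB and JunB without c-Fos or FosB shRNA. Every line falls from left to right, for c-Fos from a mean of 70.9% to 31.0%.

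Inside the domains, c-Fos lay both in bases acetylated after KCl alone (new bases) and in bases acetylated in both conditions (common bases). The new bases made up 13.3% of the domains' length. The c-Fos density there was 6.02 and 3.68 (sc52) and 9.54 and 7.19 (sc7202) in samples 3 and 4, and 6.52 and 6.36 with control shRNA in samples 5 and 6. In the common bases it was 9.51, 2.91, 11.98, 7.55, 8.97 and 6.18 in the same order. New bases were denser in 2 of 6 libraries, and the mean log2 ratio was -0.19 ± 0.36 (SD, n = 6, exact sign-flip p = 0.25, also after adjustment), a difference within the spread of the libraries. Its sign depends on the rule. It was -0.63 among domains at least 50% inside unstimulated peaks (p = 0.03125) but 0.30 when a peak was counted by overlap (p = 0.125) and 0.26 without the outer 500 bp (p = 0.188, all by exact sign-flip test). In narrower shared peaks, new bases held less c-Fos than common ones in all 6 libraries, with a mean log2 ratio of -0.99 ± 0.14 (SD, n = 6). The ratio in the domains was higher than in narrower peaks by 0.80 ± 0.31 (SD, higher in 6 of 6, exact sign-flip p = 0.03125, 0.0375 adjusted over 6 tests, 0.125 with 1 value per biological sample). This test was added after the values were seen. Where the new bases lie within each kind of peak was not measured.

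**Figure D5:**
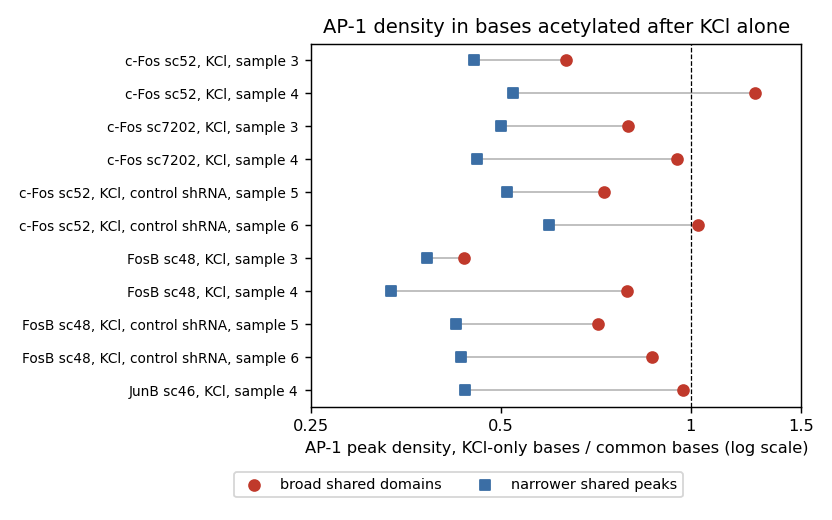
For each KCl library without c-Fos or FosB shRNA (rows), points give the AP-1 peak density in bases acetylated after KCl alone divided by that in bases acetylated in both conditions (horizontal, log scale), for broad domains (circles) and narrower shared peaks (squares). The circle lies right of the square in each library, and the dashed line marks equal density.

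The place of the peaks along a domain also differed from narrower peaks. The central 50% of the length held 64.9 ± 3.0% of the c-Fos centres in the domains (SD, n = 6) and 85.5 ± 1.9% in narrower shared peaks. An even spread would put 50% there. For sc52 in sample 3, the pair of central bins of 10% of the length held 11.4% and 11.1% of the centres in the domains, against 26.6% and 26.3% in narrower peaks. A domain held up to 5 c-Fos centres of 1 library, and 125 domains held at least 2 for sc7202 in sample 3, where binding was listed most widely.

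A subset of the domains was bound in every library. C-Fos was listed in at least 1 of the 6 KCl libraries in 427 domains, or 64.7% (background 37.0%), in all 6 in 95, or 14.4% (background 6.56%), and in none in 233. Of the 127 domains with sc52 in sample 4, 115 also had sc7202 in that sample, and of the 303 with sc52 in sample 3, 276 had sc7202. Overlap of the antibodies was not counted over all distal KCl peaks, so it is not read as a trait of the domains. FosB was listed in at least 1 of 4 KCl libraries in 389 domains, or 58.9% (background 29.0%), and in all 4 in 60, or 9.09% (background 3.76%). FosB without any c-Fos peak was listed in 42 domains, or 6.36% (background 4.31%). All 46 domains with c-Fos in all 6 and FosB in all 4 libraries also had JunB. They made up 6.97% of the domains (background 3.02%). Over all distal KCl peaks, 561 of the 562 with c-Fos in all 6 and FosB in all 4 also had JunB. The presence of JunB with them was thus not particular to the domains.

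At the other end, 184 domains, or 27.9% (background 57.1%), had no peak in any of the 11 KCl AP-1 lists. They were 5830 bp wide at the median and lay to 94.4% inside unstimulated peaks, against 6184.5 bp and 79.7% for the 46 bound in all 11. The widest after the domain on chromosome 4 were chr8:12318521-12332947 (14427 bp), chr15:83668636-83682203 (13568 bp), chr15:8603954-8617486 (13533 bp) and chr5:125627608-125640976 (13369 bp). All 4 lay to at least 89.0% inside 1 unstimulated peak. Long acetylation thus occurred with no AP-1 peak in these 11 lists, at the unknown depth of the libraries. An unstimulated c-Fos peak was listed in 5 of the 184, a count with no matching share over all distal KCl peaks.

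CBP sites give a view of the enhancers inside the domains. The deposited list of distal sites with CBP and the enhancer mark H3K4me1 is labelled as from Kim et al. Neither CBP nor H3K4me1 was mapped in these samples. The list placed 480 sites in 307 domains, or 46.5% (Wilson 95% interval 42.7 to 50.3%, counting error only, background 26.8%). A single site lay in 174 domains and several in 133, with up to 5. Per base the domains held 10.7 CBP sites per 100 kb, against 11.8 in narrower shared and 13.8 in KCl-only peaks. CBP was listed in 28.3% of the 184 domains with no peak in the 11 KCl AP-1 lists. It was listed in 71.7% of the 46 bound in all 11. Matching shares over all distal KCl peaks were not counted, so this difference is not read as a trait of the domains. No CBP site was listed in 353 domains, and the widest of all was among them.

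The authors' classes of these sites, made from H3K27ac, were mixed in the domains. Sites with constant acetylation numbered 95 in 82 domains, or 12.4% (background 3.97%), and sites with increasing acetylation 87 in 65, or 9.85% (background 7.13%). Sites with decreasing acetylation numbered 4, in 0.606% of the domains (background 1.28%), and 294 were in no class. Increasing sites lay in 53.8% of the domains with under 50% unstimulated acetylation and in 0.519% of those with at least 90%, and constant sites in 2.56% and 16.1%. These classes share the H3K27ac contrast with the choice of domains, so nothing is read from their split.

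The authors' combined c-Fos sites, single positions rather than peaks, numbered 192 in 167 domains, or 25.3% (background 13.3%), which is 4.29 per 100 kb against 4.22 in narrower shared and 10.5 in KCl-only peaks. Of these, 55.2% (Wilson 95% interval 48.1 to 62.1%) lay within 500 bp of a CBP site, close to the 55.8% in narrower shared peaks. Domains with CBP held a combined site in 37.1% of cases and those without in 15.0%. This split was not counted over all distal KCl peaks and is not read as a trait of the domains.

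Several combined sites shared a domain in 22 cases, and 3 domains held 3. In chr12:88139288-88150712 (11425 bp, 97.4% inside an unstimulated peak) the sites stood at 88142434, 88145380 and 88148296, about evenly spaced, and c-Fos centres numbered 3 and 1 (sc52), 4 and 2 (sc7202) in samples 3 and 4, and 3 and 3 with control shRNA. In chr2:6464102-6472186 (8085 bp) they stood at 6466721, 6468586 and 6470532, and only 1 unstimulated peak, chr2:6467260-6469631, lay under the domain, covering the middle site alone. The domain was 3.41-fold wider after KCl. In chr15:79594566-79602845 (8280 bp) they stood at 79595469, 79597365 and 79601324, with CBP sites close to the last 2. A distance of 167788 bp further along chromosome 2, chr2:6639975-6649590 (9616 bp, 36.6% inside an unstimulated peak) held 2, and so did chr19:5808214-5819212 (10999 bp). These 5 had FosB in 2 to 4 of 4 KCl libraries and c-Fos in all 6. Ties in the number of sites were broken by the number of KCl libraries with c-Fos. The c-Fos count therefore follows in part from the choice of these domains.

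Few domains carried c-Fos without stimulation, and much of that signal came from 6 of them. An unstimulated c-Fos peak was listed in at least 1 of 4 libraries in 54 domains, or 8.18% (background 2.93%), in 3 libraries in 7 and in all 4 in 0. In sc7202 of sample 4, the shortest list, 24 of the 26 centres in the domains fell in 6 of them, with 3 to 5 each. These were singled out after the values were seen: chr1:172961954-172969443, chr2:122199955-122205254, chr3:96302569-96307622, chr11:48665533-48673173, chr11:68848667-68855880 and chr19:12078449-12088179. They held 15 of 37 centres for sc7202 and 15 of 42 for sc52 in sample 3, and 0 of 8 for sc52 in sample 4. None held a combined c-Fos site, and c-Fos was listed there in 4 to 6 of the 6 KCl libraries. Whether they coincide with tRNA gene clusters, or with regions known to give spurious peaks, was not tested, and the unstimulated values that rest on them carry that limit. The one on chromosome 1 had 3, 4 and 5 unstimulated centres in 3 libraries and 1 to 3 after KCl in each of 6. Domain chr17:84257770-84263263 (5494 bp) also had c-Fos in 3 unstimulated and all 6 KCl libraries. It was named partly for the latter count, which broke ties.

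The balance between domains and KCl-only peaks differed between conditions. The density in the domains over that in KCl-only peaks was 2.04 and 1.32 (sc52) and 2.83 and 3.97 (sc7202) without stimulation in samples 3 and 4, and 0.682, 0.452, 0.643 and 0.539 after KCl. The groups did not overlap, and the log2 difference was -2.03 (exact permutation p = 0.0286, the smallest possible, 0.0375 adjusted over 6 tests, added after the values were seen). Counted as shares of regions with a peak it was -1.80 with the same p. Without the 6 domains it was -0.80, with unstimulated ratios of 0.308 to 1.70 and KCl ratios of 0.453 to 0.665, which overlapped. This value is a description, since the domains were picked for their unstimulated centres. Leaving out domains picked that way cannot show what the density result rests on. The shift was not particular to the domains. Narrower shared peaks, which hold none of these 6, had a mean of 0.558 centres per 100 kb without stimulation, against 0.258 in KCl-only peaks. After KCl the means were 7.14 and 12.99 (n = 4 libraries per condition). The log2 ratio of the domains to narrower shared peaks changed by 0.09 (exact permutation p = 0.886). All these libraries come from biological samples 3 and 4 alone, so the p-values do not measure the spread between cultures.

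With c-Fos shRNA, fewer c-Fos peaks were listed in the domains in both biological samples, by very different amounts. In sample 5, 45.5% of the domains had a peak with control shRNA and 20.3% with c-Fos shRNA (background 6.74%). In sample 6 it was 35.2% and 1.82% (background 0.884%). The density was lower in both, going from 8.64 to 3.42 and from 6.21 to 0.290 centres per 100 kb, without overlap between the groups. The mean log2 difference was -2.66 (exact permutation p = 0.333, the smallest that 2 against 2 allows), and the lists under c-Fos shRNA were short everywhere, with 7808 and 1793 peaks. With lists of the same length the difference was -1.22. Of the c-Fos peaks of the control libraries in domains, 28.9% and 3.60% overlapped a peak under c-Fos shRNA. In narrower shared peaks it was 24.9% and 4.61%, so the domains were above them in sample 5 and below them in sample 6, and in KCl-only peaks it was 13.8% and 1.05%. A c-Fos peak was listed under c-Fos shRNA in both samples in 11 domains, of which 8 also had unstimulated c-Fos and 2 were among the 6 with clumped unstimulated centres. The matching share over all distal KCl peaks was not counted, so these numbers are not read as a trait of the domains. The ratio of density to KCl-only peaks was 0.642 and 0.447 with control and 1.46 and 1.54 with c-Fos shRNA, not overlapping, and not tested since 2 against 2 cannot be called. The value of 1.54, in sample 6, rests on 13 centres in the domains and 18 in KCl-only peaks. This shift was not particular to the domains. Narrower shared peaks had a mean density of 7.04 with control shRNA, against 13.7 in KCl-only peaks. With c-Fos shRNA the means were 1.60 and 1.26 (n = 2 libraries per condition).

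With FosB shRNA, fewer domains had a FosB peak in both biological samples. In sample 5 the domains with a FosB peak numbered 336 with control and 238 with FosB shRNA. The latter were 36.1% of the domains (background 14.3%). In sample 6 they numbered 198 and 146, the latter 22.1% of the domains (background 9.10%). The density was 9.94 and 7.21 in sample 5 and 5.67 and 3.77 in sample 6, so the groups overlapped across samples. The mean log2 difference was -0.52 (exact permutation p = 0.667), and with lists of the same length it was 0.31. Of the control peaks in domains, 47.0% and 42.5% overlapped a peak under FosB shRNA. The share was 42.1% and 38.3% in narrower shared peaks and 42.2% and 37.5% in KCl-only peaks, and its difference from the domains was not tested. FosB and c-Fos shRNA were each measured with their own antibody, so no comparison between them was made.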

How the data were processed

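The deposited ChIP-seq peak lists were made by the authors for H3K27ac and the 3 AP-1 proteins. The submitters' processing notes name BWA and mm9, and the peak names in the deposited files begin with MACS. Versions and filters are not stated there. The score of a peak is the authors' value per peak from the deposited lists, where 50 stands for a p-value of 1e-05 if read as the MACS scale. Combined c-Fos sites, CBP sites and their classes are deposited positions, and the CBP sites are labelled as from Kim et al. How they were made is not given. Input DNA was not analysed here.

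Widths, overlaps (1 bp) and AP-1 peak centres per 100 kb were computed with Python 3.11.15, numpy 2.4.6, scipy 1.17.1 and matplotlib 3.10.9. Background percentages are over all 18556 distal KCl peaks. Libraries were compared by exact permutation or sign-flip tests, two-sided, with Benjamini-Hochberg adjustment over the 4 c-Fos tests able to reach 0.05. The steps were tested on simulated data. Domains named are the 5 widest, the 5 with the most combined c-Fos sites, the 5 widest without AP-1, the 3 with the most unstimulated c-Fos lists, the 3 least acetylated without stimulation, and the 3 on either side of the width limit. Ties in combined sites or in unstimulated lists were broken by the number of KCl c-Fos lists with a peak, then by width. The domains and lists were chosen with earlier results of these data known. Per the labels, a number marks 1 biological sample across libraries. Sample 3 exceeded sample 4 in density in 5 of 6 groups and sample 5 exceeded sample 6 in 4 of 4. The alternatives were width limits, overlap rules, a score of at least 100, lists of the same length, autosomes only, single antibodies, left-out samples and the replicate block. Sequences and genes of the domains were not analysed here, since no mm9 genome was used.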

Additional observations from a re-analysis of the deposited data

Results flagged for a closer look

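The c-Fos density ratio of KCl-only to common bases was higher in broad domains than in narrower shared peaks, by 0.80 on the log2 scale in the mean and in 6 of 6 libraries (exact sign-flip p = 0.03125). What drew attention was that the same ratio differed between the 2 kinds of peak. Where the KCl-only bases lie within each kind of peak was not measured.

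The log2 ratio of c-Fos density in broad domains to that in KCl-only peaks differed between KCl and unstimulated libraries by -2.03 (KCl minus unstimulated, exact permutation p = 0.0286), which drew attention as a change between conditions. These libraries come from biological samples 3 and 4 alone. Without the 6 domains that hold most unstimulated centres of the shortest list, the difference was -0.80 (exact permutation p = 0.2). This value is read as a description alone, since those domains were picked for their unstimulated centres. Whether they coincide with tRNA gene clusters or regions known to give spurious peaks was not tested. Narrower shared peaks, which hold none of these domains, were also denser than KCl-only peaks without stimulation and less dense after KCl.

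Among 14 groups of library values checked for a single library far from the rest, 0 were called.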

How the results depend on the processing

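Of 114 alternative values over 8 results, 75 kept their direction and their side of the threshold. Many belong to results that cannot reach 0.05, whose side was fixed in advance. These were FosB with KCl (12), FosB against narrower peaks (12), c-Fos shRNA (12) and FosB shRNA (11). In the 4 c-Fos tests able to reach 0.05, fewer were kept. The counts were 8 for KCl, 3 against narrower peaks, 7 against KCl-only peaks and 10 for new against common bases. The gain of c-Fos with KCl was 3.40 to 3.48 without 1 biological sample, 3.31 with sc52 alone, 3.57 with sc7202 alone, 3.43 without sc7202 of sample 4 (added after seeing the data) and 3.44 with the replicate block. None of these designs can reach 0.05. With lists of the same length it was 0.40.

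The log2 ratio of c-Fos density to narrower shared peaks was 0.088 to 0.14 without 1 biological sample, 0.11 with sc52 alone, 0.13 with sc7202 alone and 0.10 with the replicate block. It was 0.0066 for domains at least 50% inside unstimulated peaks, 0.088 by overlap, 0.21 with lists of the same length and 0.023 for combined sites, and reversed to -0.26 at 7500 bp, -0.062 against peaks of 3000 to under 5000 bp and -0.26 without the outer 500 bp (added after seeing the data). The ratio to KCl-only peaks was -0.96 to -0.75 without 1 biological sample, -0.87 with sc52 alone, -0.77 with sc7202 alone, -1.29 for combined sites and -0.85 with the replicate block.

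The ratio of new to common bases in the domains was -0.35 to -0.038 without 1 biological sample and -0.19 with the replicate block. It passed the threshold at -0.63 for domains at least 50% inside unstimulated peaks and at -0.99 for narrower peaks. It reversed to 0.48 at 7500 bp, 6.0e-05 with a score of at least 100, 0.30 by overlap, 0.15 for combined sites and 0.26 without the outer 500 bp.

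FosB against narrower peaks reversed to -0.078 at 7500 bp and -0.027 with JunB, and spanned 0.21 to 0.29 without 1 biological sample. The FosB gain with KCl was 1.71 to 2.99 without 1 biological sample and 1.26 with lists of the same length. The c-Fos shRNA difference was -4.01 to -1.31, so it rests on sample 6 for its size, and it was -1.22 with lists of the same length. The FosB shRNA difference was -0.58 to -0.46 and reversed to 0.31 with lists of the same length. The causes were not tested, beyond fewer libraries where samples were left out or blocked. Without read counts, depth cannot be separated from list length.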
